A study of Mus musculus with 8 samples.

Results

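The nuclear genes for the subunits of oxidative phosphorylation were examined in the CA1 region of the mouse hippocampus, in animals given a guide RNA against SIK3 or a control guide. Members were the protein-coding genes among 37315 Ensembl gene identifiers whose symbol begins with Nduf (apart from Ndufaf, the assembly factors), Sdha to Sdhd, Uqcr, Cox4i, Cox5, Cox6, Cox7, Cox8 or Atp5. This gave 85 genes, of which 38 belong to complex I by name, 4 to complex II, 8 to complex III, 18 to complex IV and 17 to complex V. The choice used gene names alone and no measured value. A further 11 pseudogene rows with the same name starts, holding 0 to 19 counts each over all libraries, were left out.

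Each of the 8 mice expressed Cas9 and received a stereotaxic injection of an adeno-associated virus (AAV), which carried a guide against SIK3 in 4 mice (KO 1 to KO 4) and a control guide in 4 mice (Control 1 to Control 4). Males were Control 1, Control 3, KO 1 and KO 2, and the females were Control 2, Control 4, KO 3 and KO 4. The Cas9 strain and its promoter, the promoter on the virus, the age of the animals and the time from injection to dissection were not given in the sources used here. CA1 was dissected whole, so each library holds RNA of infected and uninfected cells of all types, and fewer cells of a type cannot be told apart from less RNA per cell.

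Oxidative phosphorylation moves electrons from NADH and succinate to oxygen through complexes I to IV of the inner mitochondrial membrane, and complex V (ATP synthase) uses the proton gradient this builds to make ATP. Complex II is built from nuclear genes alone, while the other complexes combine nuclear subunits with a few subunits encoded by mitochondrial DNA. Neurons rely on this pathway for most of the ATP that ion pumping and synaptic transmission consume. SIK3 is a salt-inducible kinase that phosphorylates the CREB coactivators of the CRTC family and class IIa histone deacetylases.

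Library totals ran from 13561662 to 18619928 counts, and the 4 male libraries were all shallower than the 4 female libraries. The targeted gene Sik3 was at 137 to 165 CPM (the count scaled to a common library size) in the controls and 75.3 to 98.4 CPM in the KO libraries, without overlap. The CA1 marker Wfs1 was at 86.0 to 150 CPM and Prox1, a gene of dentate granule cells and some interneurons, at 231 to 307 CPM in every library. Libraries also differed in the slope of log2 CPM on transcript GC content over genes that are not members, at 0.15, -0.05, -0.10 and -0.12 per 10 percentage points in Control 1 to 4 and -0.17, 0.10, 0.03 and 0.17 in KO 1 to 4.

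The filter on low counts kept 77 of the 85 members: 37 of complex I, all of complexes II, III and V, and 11 of complex IV. The other 8 were Ndufa4l2 and the tissue-restricted isoforms Cox4i2, Cox6a2, Cox6b2, Cox7a1, Cox7b2, Cox8b and Cox8c. Cox8b and Cox8c had 0 counts in all 8 libraries, which allows up to 3 counts in a library, or 0.161 to 0.221 CPM by the library total (counting error only). The remaining tissue-restricted isoforms of cytochrome c oxidase had 27 counts (Cox6a2) to 63 counts (Cox6b2) over all libraries together.

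Levels of different genes were compared per kilobase of annotated exon. With the union of annotated exons as the length, 2 subunits of the ATP synthase head were most abundant. Atp5b (beta) was at 119 CPM per kb (103 to 128 over the 8 libraries) and Atp5a1 (alpha) at 117 CPM per kb (105 to 126). Their ranges overlapped, and both stood above Atp5h, the peripheral stalk subunit d, at 50.2 CPM per kb (45.5 to 56.1). At the other end of complex V were Atp5e, the epsilon subunit of the central stalk, at 4.28 CPM per kb (3.25 to 5.33), and Atp5g2 at 3.72 CPM per kb (2.1 to 5.34).

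In complex I the median member was at 13.2 CPM per kb. Ndufa4, named for complex I but now assigned to complex IV, had the highest value at 47.7 CPM per kb (42.3 to 54.5). Of the 36 pairs of neighbours in the order of complex I, the ranges over libraries were apart in 1, at the top of the order, so the order of the others is not resolved by this spread. The lowest with this length were Ndufb6 at 2.77 and Ndufb7 at 1.74 CPM per kb, both accessory subunits of the membrane arm.

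The 4 subunits of succinate dehydrogenase were ordered without overlap between neighbours. Sdha, the flavoprotein, was at 82.4 CPM per kb (77.1 to 85.9). Sdhd, a membrane anchor, was at 33.6 CPM per kb, Sdhb, the iron-sulfur subunit, at 12.9 CPM per kb and Sdhc, the other anchor, at 8.65 CPM per kb. Complex III ran from 49.8 CPM per kb for the core subunit Uqcrc2 to 1.6 for the small subunit Uqcrq, with 3 of 7 neighbouring pairs apart. Complex IV had the narrowest spread among tested members, from 84.6 CPM per kb for Cox8a to 14.8 for Cox6c, and 2 of its 10 neighbouring pairs were apart.

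**Figure D1:**
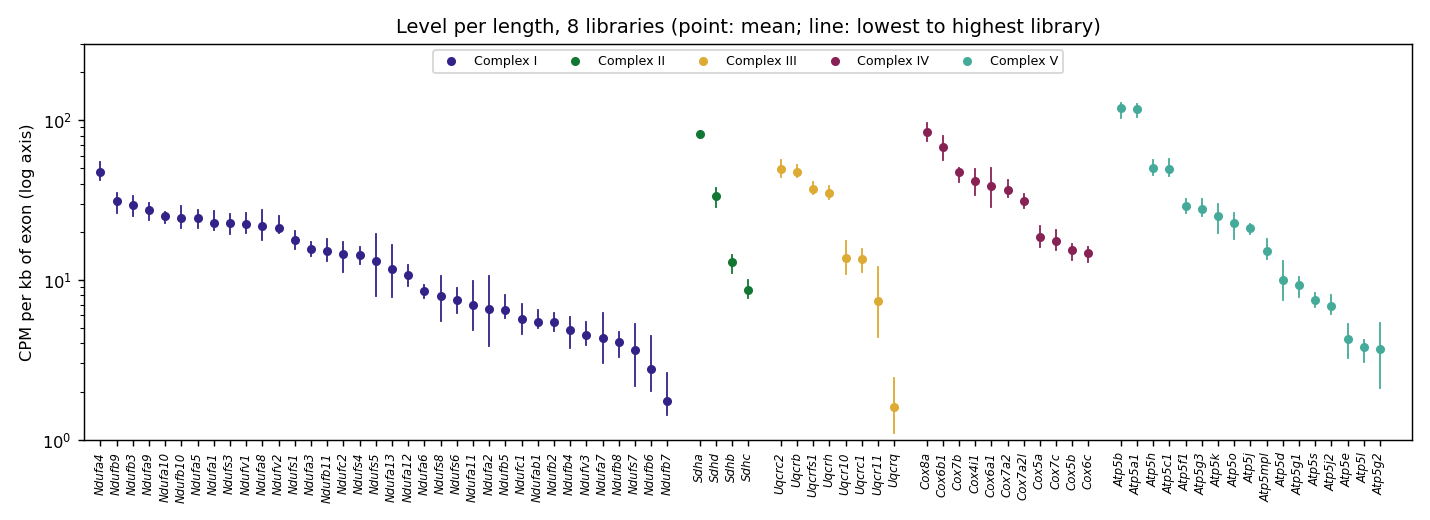
Level of 76 tested members in CPM per kb of annotated exon (log axis), ordered within each complex. Points are means over the 8 libraries and lines run from the lowest to the highest library; Atp5b at 119 and Atp5a1 at 117 CPM per kb lead, and Uqcrq at 1.6 is lowest.

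The ranking depends on the length used, since a union of all annotated exons counts long isoforms that may not be present in CA1. With the median length of the basic protein-coding transcripts, Cox6c moved from rank 11 to rank 3 in complex IV, at 87.2 CPM per kb. Uqcrh moved from rank 4 to rank 1 in complex III, at 90.9 CPM per kb, and Atp5l from rank 16 to rank 10 in complex V. Ndufb7 moved from 1.74 to 12.6 CPM per kb and from rank 37 to rank 28 in complex I, where Ndufb6 at 3.21 and Ndufa2 at 6.59 CPM per kb were then lowest. Atp5b, Atp5a1, Sdha and Ndufa4 kept their ranks of 1 or 2 in their complexes. Over all members Atp5b stayed first, at 263 CPM per kb (228 to 284), while Ndufa4 at 143 CPM per kb (127 to 164) lay level with Atp5a1 at 143 CPM per kb (128 to 153). The ranges of Atp5b and Atp5a1 were then apart, and those of Atp5a1 and Atp5h (104 to 128) overlapped. The 4 subunits of complex II kept their order without overlap, while 0 of 10 neighbouring pairs in complex IV and 2 of 7 in complex III were apart.

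Several subunits come in paralogous forms, and in each pair of complex IV forms compared here the widely expressed form carried nearly all the signal of the pair. The pairs do not cover every related member of a family. Cox4i1, the regulatory subunit found in most tissues, was at 41.7 CPM per kb against 0.295 for Cox4i2, its hypoxia-induced paralog. Cox6a1 was at 38.6 CPM per kb against 0.304 for the heart and muscle form Cox6a2, and Cox6b1 at 67.6 against 0.440 for the testis form Cox6b2. Cox7a2 was at 36.7 CPM per kb against 0.741 for the heart and muscle form Cox7a1, and Cox7b was at 47.4 against 0.457 for Cox7b2. Ndufa4 was at 47.7 CPM per kb against 0.381 for Ndufa4l2.

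Each of 3 genes encodes the same mature c subunit, which forms the rotating ring of ATP synthase. Atp5g3 was at 28.0 CPM per kb (25.1 to 32.1), Atp5g1 at 9.26 (7.80 to 10.4) and Atp5g2 at 3.72 (2.1 to 5.34). The ranges of these 3 genes were apart with the union of exons. With the basic transcript length the range of Atp5g1 (14.3 to 19.0 CPM per kb) overlapped that of Atp5g2 (6.0 to 15.3), and Atp5g3 stayed above both (76.0 to 97.3). Shared exon sequence was measured as the percentage of a member's 50-base transcript stretches that occur in other genes' transcripts, on either strand. Of the exon sequence of Atp5g2, 38.3% is shared with other genes, mainly Gm10175 and Gm10231, and of Atp5g1 11.1%, so their levels are uncertain. In all, 19 of the 85 members share over 10% of their exon sequence, up to 41.6%, among them Atp5h at 19.9%. Their levels and ranks are also uncertain. For some, such as Uqcrc2 with Pdzd9, the other gene lies on the opposite strand, which matters only if counting ignored strand.

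Promoter sequences were taken from RefSeq (GRCm38.p6) and searched near the members' start sites for exact core motifs of known respiratory-gene regulators. Binding to these motifs was not measured. Windows ran from 250 bases before to 50 bases after the start, and 69 of the 85 members had one. The core of nuclear respiratory factor 1 (NRF1), GCATGCGC, was in 10 of 69 windows (14.5%), against 2.80% of all 27025 windows in the table and 5.21% of the 11127 windows of tested genes. The ETS core CCGGAAG, read by the GABP complex, was in 15 windows (21.7%, against 9.12% of all and 16.8% of tested genes). The YY1 core AAGATGGCG was in 6 windows (8.70%, against 1.49% and 2.97%), and the cyclic AMP response element (CRE) TGACGTCA was in 4 (5.80%, against 1.88% and 3.16%), those of Ndufa10, Ndufa11, Ndufb2 and Uqcrfs1. The estrogen-related receptor core TCAAGGTCA was in 2, Atp5g3 and Sdhd (2.90%, against 0.407% and 0.270%). Both strands were searched. The NRF1 core can overlap its own reverse complement by 6 bases, and the ETS and YY1 cores can share the letters AAG.

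The windows below belong to members whose values are described further on or that hold a CRE, and each shows a different motif or pair of motifs, in capitals, in the gene's own direction. Atp5e (chr2:174464052-174464351, minus strand) has the ETS core in reverse complement. Ndufs7 (chr10:80249199-80249498, plus strand) has the YY1 core just after the start. Ndufa11 (chr17:56717512-56717811, plus strand) has the CRE and a pair of overlapping NRF1 cores. Atp5g3 (chr2:73911277-73911576, minus strand) has the estrogen-related receptor core in reverse complement. Sdhd (chr9:50603800-50604099, minus strand) has the ETS core and the estrogen-related receptor core, both in reverse complement.
Atp5e: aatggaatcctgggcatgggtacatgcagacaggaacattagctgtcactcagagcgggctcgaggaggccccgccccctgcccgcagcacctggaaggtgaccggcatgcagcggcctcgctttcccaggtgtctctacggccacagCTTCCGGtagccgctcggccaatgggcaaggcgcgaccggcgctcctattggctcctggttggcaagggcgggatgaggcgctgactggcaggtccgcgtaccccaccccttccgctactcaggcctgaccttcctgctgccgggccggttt
Ndufs7: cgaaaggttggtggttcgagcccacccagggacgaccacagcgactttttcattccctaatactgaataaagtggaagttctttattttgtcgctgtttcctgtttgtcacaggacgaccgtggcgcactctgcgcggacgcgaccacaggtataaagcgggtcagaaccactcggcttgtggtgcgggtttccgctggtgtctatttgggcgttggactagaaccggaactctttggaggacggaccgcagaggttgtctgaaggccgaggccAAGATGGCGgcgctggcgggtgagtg
Ndufa11: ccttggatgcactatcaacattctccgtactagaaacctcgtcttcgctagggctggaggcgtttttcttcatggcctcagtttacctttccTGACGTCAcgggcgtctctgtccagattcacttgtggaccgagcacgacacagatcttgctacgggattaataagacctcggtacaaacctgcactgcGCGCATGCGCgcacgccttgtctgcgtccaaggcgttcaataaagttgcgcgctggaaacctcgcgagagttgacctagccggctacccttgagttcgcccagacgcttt
Atp5g3: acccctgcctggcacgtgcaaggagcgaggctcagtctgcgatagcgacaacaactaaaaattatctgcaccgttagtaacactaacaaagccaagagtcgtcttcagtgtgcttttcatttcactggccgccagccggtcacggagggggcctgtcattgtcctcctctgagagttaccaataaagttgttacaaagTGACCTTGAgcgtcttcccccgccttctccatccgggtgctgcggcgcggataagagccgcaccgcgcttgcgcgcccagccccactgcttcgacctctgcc
Sdhd: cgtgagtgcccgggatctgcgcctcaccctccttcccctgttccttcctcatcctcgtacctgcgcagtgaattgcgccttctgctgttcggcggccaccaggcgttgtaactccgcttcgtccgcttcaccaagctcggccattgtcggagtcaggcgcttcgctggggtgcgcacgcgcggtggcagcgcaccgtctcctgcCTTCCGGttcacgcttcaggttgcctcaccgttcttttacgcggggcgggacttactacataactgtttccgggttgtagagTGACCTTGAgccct

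The comparison the design was made for is the SIK3 guide against the control guide. Summed over all 85 members, the level was 3974, 3448, 4038 and 3844 CPM in Control 1 to 4 and 3707, 4028, 3683 and 3776 CPM in KO 1 to 4. The means were 3826 ± 265 CPM in controls and 3799 ± 158 CPM with the SIK3 guide (n = 4 each, SD), a log2 difference of -0.009, and the groups overlapped. The highest and the lowest library were both controls. Members took 0.345% to 0.405% of all CPM.

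Each complex gave the same picture of overlapping groups. Members of complex I by name, Ndufa4 included, summed to 1073 ± 78.8 CPM with the control guide and 1059 ± 48.1 CPM with the SIK3 guide (n = 4 each, SD). Complex II was at 438 ± 24.7 and 439 ± 11.3 CPM, and complex III at 336 ± 24.4 and 333 ± 14.2 CPM. Complex IV was at 468 ± 31.4 and 468 ± 48.2 CPM, with both its lowest library, KO 1 at 410, and its highest, KO 2 at 514, among the KO males. Complex V was at 1511 ± 109 and 1501 ± 57.8 CPM.

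**Figure D2:**
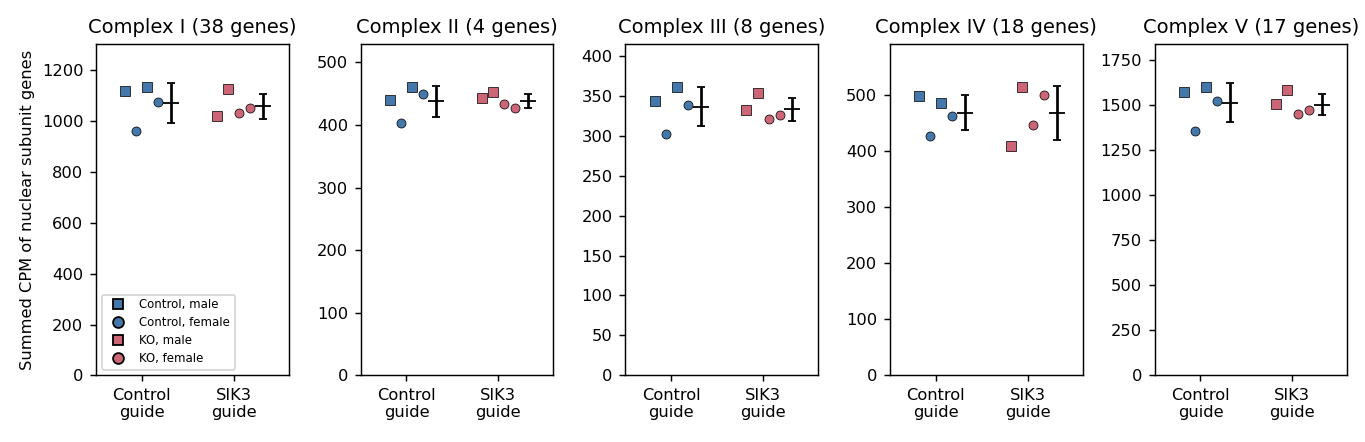
Summed CPM of the nuclear members of each complex, 1 point per library (squares male, circles female), with the mean and SD of each guide group beside it (n = 4). The groups overlap in all 5 complexes.

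The 13 subunits encoded by mitochondrial DNA, which share these complexes, summed to 85603 ± 2863 CPM with the control guide and 85243 ± 6687 CPM with the SIK3 guide (n = 4 each, SD). The ratio of nuclear to mitochondrial subunit CPM was 0.0447 ± 0.0033 and 0.0448 ± 0.0046 (n = 4 each, SD). These are poly(A)-selected libraries, and mt-Co1 alone was at 20396 to 23617 CPM.

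At the level of single genes, 0 of the 77 tested members passed an adjusted p of 0.05 (edgeR quasi-likelihood test, Benjamini-Hochberg over all 14788 tested genes), where 2 of all tested genes did (0.0135%). At an unadjusted p under 0.05, 1 member was lower (background 1.03%) and 0 were higher (background 1.79%). DESeq2 and limma voom also passed 0 members at the adjusted threshold. The median log2 fold change of the members was -0.02, with 48 negative and 29 positive, against a median of 0.00 over all tested genes. For 49 of the 77 the log2 fold change lay within 0.1 of zero, and the median standard error was 0.10.

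**Figure D3:**
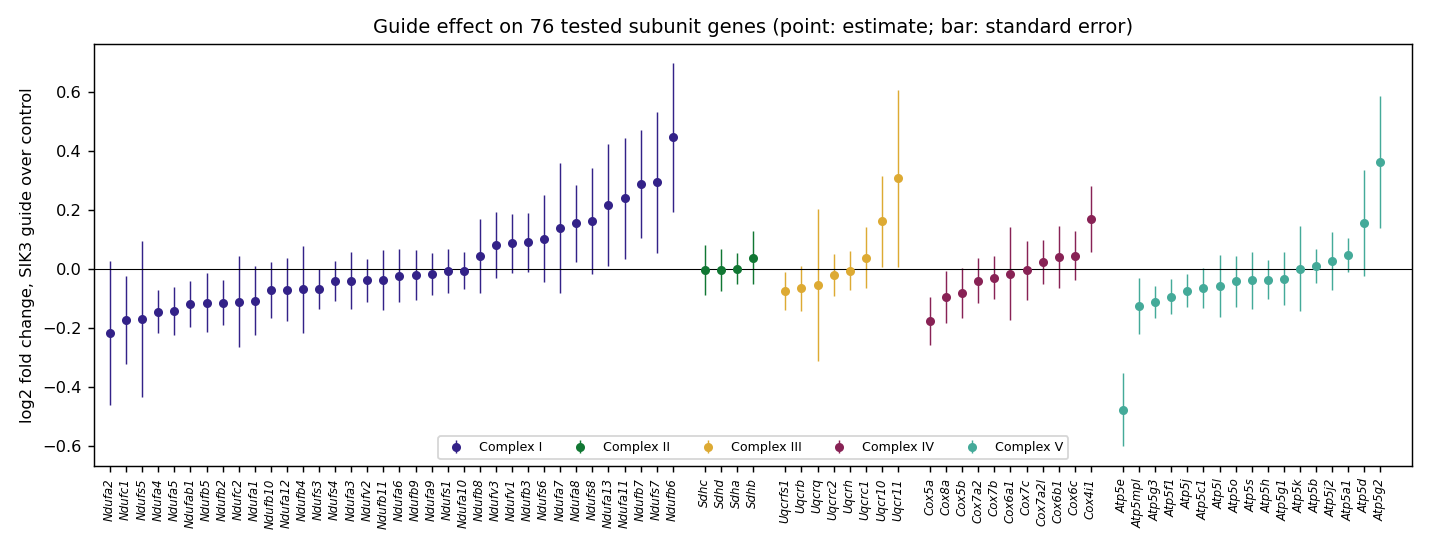
Log2 fold change of the SIK3 guide over the control guide for 76 tested members, ordered within each complex, with standard errors from the edgeR fit (8 libraries, sex as a term). Atp5e, at -0.48, is the point farthest below zero, and Ndufb6, at 0.45, the farthest above it, with a longer bar.

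The member with the smallest p was Atp5e, which encodes the epsilon subunit of the ATP synthase central stalk (ENSMUSG00000016252, chromosome 2, 174461072 to 174464105 on GRCm38, minus strand). It was at 9.16, 7.23, 9.36 and 9.28 CPM in Control 1 to 4 and 5.71, 6.34, 6.53 and 6.45 CPM in KO 1 to 4. Every KO library was below every control, with Control 2 the nearest. Groups that did not overlap were lower in KO in 1 of 77 members (background 0.811%) and higher in 0 (background 0.933%). The log2 fold change was -0.48 ± 0.13 (SE, edgeR unadjusted p = 0.00249, adjusted p = 0.9999). The exact two-sided permutation p was 0.0286, the smallest that 4 against 4 allows. Groups without overlap always give this value, so it adds nothing to the separation. Atp5e ranked 28 of all 14788 genes by p and did not pass the correction. The difference was -0.62 in males and -0.34 in females. Between 85 and 153 reads per library stood behind these values, and its annotated exons shared no 50-base stretch with another gene.

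The other subunits of the ATP synthase head and central stalk had estimates nearer to zero or above it. Atp5a1 had a log2 fold change of 0.05 ± 0.06, Atp5b 0.01 ± 0.06, Atp5c1 (gamma) -0.06 ± 0.07 and Atp5d (delta) 0.16 ± 0.18 (SE). The 4 peripheral stalk genes Atp5f1, Atp5h, Atp5j and Atp5o were all negative, from -0.09 to -0.04, with unadjusted p of 0.150 or more (edgeR).

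Among the c-ring genes the estimates had both signs. Atp5g3 was at 66.7, 58.1, 69.9 and 58.9 CPM in Control 1 to 4 and 61.6, 62.9, 54.6 and 55.4 CPM in KO 1 to 4, with overlap (log2 fold change -0.11 ± 0.06, edgeR unadjusted p = 0.0672). Atp5g2 was at 7.03, 5.90, 5.38 and 3.52 CPM in Control 1 to 4 and 4.71, 7.34, 6.96 and 8.94 CPM in KO 1 to 4 (0.36 ± 0.22, edgeR unadjusted p = 0.130). Control 4 and KO 4, both female, held the lowest and the highest Atp5g2 value. Atp5mpl, a small protein of the membrane part, had a log2 fold change of -0.12 ± 0.09.

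In complex IV the smallest p belonged to Cox5a, a matrix-side subunit. It was at 38.6, 41.6, 45.5 and 40.6 CPM in Control 1 to 4 and 35.6, 43.1, 33.8 and 35.3 CPM in KO 1 to 4. KO 2 lay among the controls and the other KO libraries below them (log2 fold change -0.18 ± 0.08, edgeR unadjusted p = 0.0545, adjusted p = 0.9999; exact permutation p = 0.114). Cox4i1 had a log2 fold change of 0.17 ± 0.11, Cox8a -0.09 ± 0.09, Cox5b -0.08 ± 0.08 and Cox6c 0.05 ± 0.08 (SE). In complex IV 7 of the 11 tested members were negative, and 0 had an unadjusted p under 0.05.

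In complex I, 23 of 37 tested members were negative and 0 had an unadjusted p under 0.05. Ndufa4 was at 70.1, 61.1, 75.3 and 70.2 CPM in Control 1 to 4 and 58.4, 69.4, 59.7 and 62.7 CPM in KO 1 to 4, with overlap (-0.14 ± 0.07, edgeR unadjusted p = 0.0736). Ndufa5, an accessory subunit of the matrix arm, had a log2 fold change of -0.14 ± 0.08, and Ndufab1, the mitochondrial acyl carrier protein, -0.12 ± 0.08. The estimates farthest above zero were those of members with few reads. Ndufb6 was at 1.33 to 1.92 CPM with the control guide and 1.48 to 2.94 CPM with the SIK3 guide (0.45 ± 0.25), with 18 to 52 reads per library, and 31.6% of its exon sequence is shared with the opposite-strand gene Smim27. Ndufb7 had a log2 fold change of 0.29 ± 0.18. The 7 core subunits had a median of 0.03 and the 29 other accessory subunits a median of -0.04.

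Complex II stayed within 0.04 of zero for all 4 genes. Sdha was at 335, 318, 354 and 351 CPM in Control 1 to 4 and 348, 347, 340 and 326 CPM in KO 1 to 4, the most even member over libraries, with a ratio of highest to lowest of 1.11 and a log2 fold change of 0.00 ± 0.05. Sdhb was at 0.04 ± 0.09, Sdhc at 0.00 ± 0.09 and Sdhd at 0.00 ± 0.07 (log2 fold change ± SE). In complex III, Uqcrfs1, the Rieske iron-sulfur protein, had a log2 fold change of -0.07 ± 0.07, Uqcrb -0.07 ± 0.08, Uqcrc1 0.04 ± 0.10 and Uqcr10 0.16 ± 0.15.

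The most uneven member was Uqcr11, a small subunit of complex III, at 6.32, 3.48, 3.76 and 3.58 CPM in Control 1 to 4 and 2.82, 6.49, 3.94 and 7.70 CPM in KO 1 to 4. Its highest library was 2.73 times its lowest, and high and low libraries lay in both groups (0.31 ± 0.30). Over the 77 members the median ratio of highest to lowest library was 1.33, against 1.35 over all tested genes; it was above 2 for 10 members and below 1.3 for 31.

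**Figure D4:**
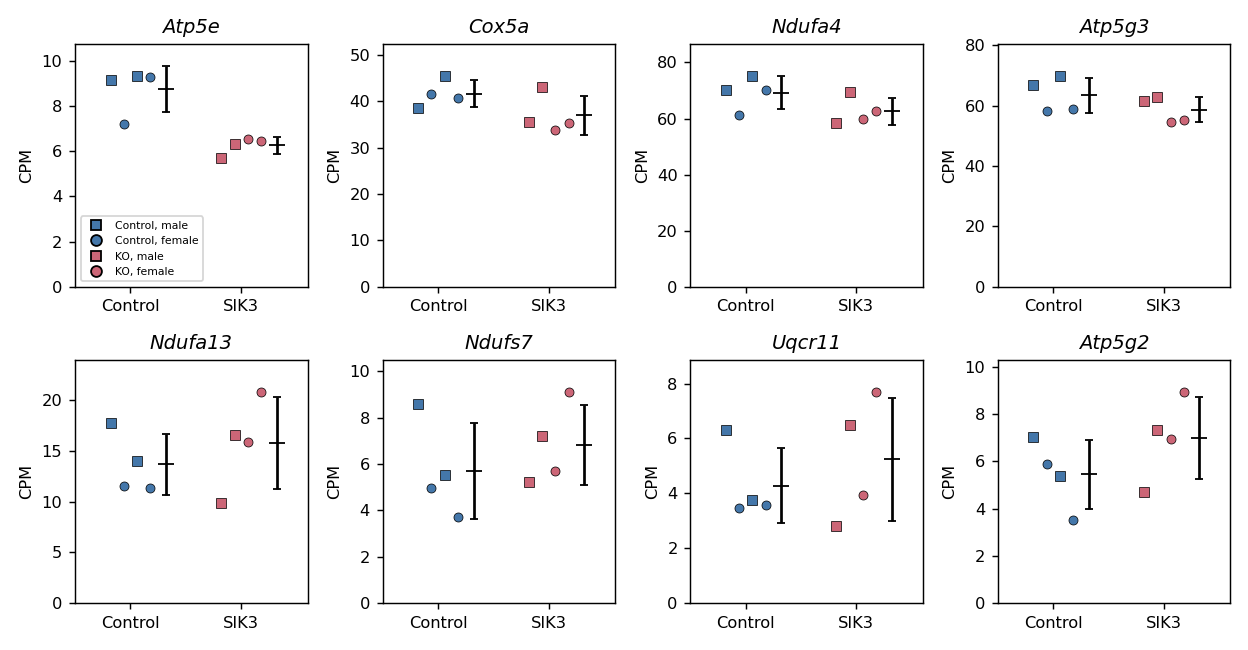
CPM of 8 members in each library (squares male, circles female), with the mean and SD of each guide group beside the points (n = 4). Atp5e is the only one of the 8 whose groups are apart, at 7.23 to 9.36 CPM in controls and 5.71 to 6.53 CPM in KO libraries. Ndufa13, Ndufs7, Uqcr11 and Atp5g2 are higher in KO than in control females and overlap in males.

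Libraries with high or low deviations in the members mostly had the same sign in the ribosomal protein genes. Their median deviation from each gene's mean log2 CPM was 0.11, -0.15, 0.08 and 0.00 in Control 1 to 4 and -0.15, 0.10, -0.06 and 0.03 in KO 1 to 4. The 82 cytosolic ribosomal protein genes gave 0.12, -0.14, 0.05 and -0.06 in the same order of controls, then -0.15, 0.18, -0.08 and 0.08 in KO 1 to 4. The 75 mitochondrial ribosomal protein genes gave 0.06, -0.11, 0.09 and 0.00, and -0.04, 0.05, -0.04 and 0.01. Control 2 and KO 1 were the low libraries in all 3 groups of genes, 1 in each guide group.

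Leaving out 1 library moved the counts of members at an unadjusted p under 0.05. Without KO 1, 11 members were higher at that level (7.18% of all genes were), without Control 1, 8 were (6.02% of all genes), and without KO 3, 1 was (1.47%). The count of lower members was 4 without Control 1 (2.91% of all genes), 3 without KO 2 (0.822%), 3 without KO 4 (1.17%) and 2 without Control 2 (0.898%). With the GC slope as a covariate, 8 members were lower (background 2.24%), namely Atp5e, Ndufa2, Ndufa4, Cox8a, Atp5g3, Cox5a, Ndufa5 and Atp5mpl, and 0 were higher. With the slope on exon length 5 were lower (background 1.97%). With no filter on low counts, 2 members were lower (background 1.02%), Atp5e and Cox5a, and 4 were higher (background 2.99%), Atp5g2, Cox4i1, Ndufb7 and Ndufs7. In none of these fits did a member pass the adjusted p.

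The second labelled factor is sex. Of the 77 members 66 were lower in females, with a median log2 difference of -0.08 (females minus males) against -0.01 over all tested genes. At an unadjusted p under 0.05, 8 members were lower in females (background 2.81%) and 0 higher (background 3.25%). None of the 77 passed the adjusted p (background 0.0609%). Sex cannot be told apart from depth here, since all male libraries were shallower. The same direction held in 72 of 82 cytosolic ribosomal protein genes (median -0.11) and 62 of 75 mitochondrial ribosomal protein genes (median -0.08); what these groups of genes have in common was not tested.

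Atp5g3 had the smallest p for sex. The males were at 61.6 to 69.9 CPM and the females at 54.6 to 58.9 CPM, without overlap (log2 difference -0.20 ± 0.06, edgeR unadjusted p = 0.00347, adjusted p = 0.628). Sdhd was at 42.3 to 46.6 CPM in males and 35.0 to 41.8 CPM in females, also apart (-0.20 ± 0.07, edgeR adjusted p = 0.764). So was Ndufs3, at 49.2 to 55.9 CPM in males and 42.5 to 49.0 CPM in females. The share of all genes with the sexes apart was not computed, so this separation is not a result about the members. Ndufa9, an accessory subunit of the matrix arm, was at 59.7 to 63.3 CPM in males and 49.8 to 61.1 CPM in females (-0.19 ± 0.07, edgeR adjusted p = 0.764), and Control 4 lay among the males. Without KO 1, 19 members were lower in females at an unadjusted p under 0.05 (4.37% of all genes), and without Control 1 the count was 13 (4.37%). It was 1 without Control 2 (1.56%) or Control 3 (1.18%), 2 without KO 2 (1.83%) and 4 without KO 3 (1.69%).

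The guide effect was also compared between the sexes, from 2 mice against 2 in each. In males 69 of 77 members were negative, with a median of -0.10 (all tested genes 0.00). In females 48 of 77 were positive, with a median of 0.06 (all tested genes 0.00). At an unadjusted p under 0.05, 2 members were lower in males (background 0.906%), Atp5e and Atp5mpl, and 0 higher (0.926%). In females 6 were higher (background 5.21%), Ndufa13, Ndufs7, Atp5g2, Cox4i1, Ndufa8 and Uqcr10, and 0 lower (1.9%). At the adjusted p the count of members was 0 in both sexes (background 0% in males and 0.0406% in females). With the GC slope of each library added, an alternative chosen after seeing the data, 39 of 77 members were positive in females with a median of 0.003, and 0 were higher (background 2.12%) and 2 lower (1.4%) at an unadjusted p under 0.05, Cox5a and Ndufs5. In males 62 of 77 were then negative with a median of -0.06, and the 2 lower (1.51%) were again Atp5e and Atp5mpl.

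The difference itself, the effect in females minus that in males, was positive in 63 of 77 members, with a median of 0.16 against 0.01 over all tested genes. At an unadjusted p under 0.05, 5 members were higher (background 3.46%) and 0 lower (1.96%). The count past the adjusted p was 0 (background 0%), and the smallest adjusted p was 0.765 (edgeR). Cytosolic ribosomal protein genes had nearly the same median, 0.15, with 67 of 82 positive. The 13 mitochondrially encoded subunits were all negative, with a median of -0.11 and 0 at an unadjusted p under 0.05.

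Ndufa13, an accessory subunit also known as GRIM-19, had the smallest p of these. It was at 17.8 and 14.0 CPM in control males, 9.81 and 16.6 in KO males, 11.6 and 11.3 in control females, and 15.9 and 20.8 in KO females. The KO females were both above the control females, and the KO males lay on either side of a control male (difference 0.95 ± 0.31, edgeR unadjusted p = 0.0107, adjusted p = 0.765). With no filter on low counts its adjusted p was 0.0162 (edgeR, difference 0.94 ± 0.22), and it was the only member past the threshold there, where 0.414% of all 24147 genes passed; 12 members were higher at an unadjusted p under 0.05 in that fit (background 4.95%). Of its exon sequence 28.5% is shared, mainly with the opposite-strand gene Tssk6. Ndufs7, a core iron-sulfur subunit, was at 8.59 and 5.53 CPM in control males, 5.24 and 7.20 in KO males, 4.97 and 3.70 in control females, and 5.72 and 9.11 in KO females (0.95 ± 0.40, edgeR unadjusted p = 0.0364, adjusted p = 0.765). Atp5mpl was at 21.8 and 21.4 CPM in control males and 16.5 and 18.1 in KO males, with 17.9 and 16.4 in control females and 18.0 and 17.9 in KO females (0.38 ± 0.16, edgeR unadjusted p = 0.0376). Ndufa8 and Ndufv3 were the remaining members at that level, with differences of 0.51 ± 0.22 and 0.44 ± 0.20.

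These differences went with GC content. Member transcripts ranged from 41.0% to 60.9% GC, with a median of 50.1%. Of the 38 members above that median 36 had a positive difference, with a median of 0.32, and of the 39 others 27 did, with a median of 0.04. All tested genes split at the same GC content had medians of 0.16 above and -0.10 at or below it. Across the 77 members the Pearson correlation of the difference with GC content was 0.65, given as a description, since members share the 8 libraries and their GC slopes. With the GC slope of each library added to this fit, the members' median was 0.05 and 50 of 77 were positive. At an unadjusted p under 0.05 (edgeR) 0 members were called, against 1.56% of all tested genes higher and 1.46% lower. The members' correlation was then -0.01, and that of all tested genes with a GC value -0.001. Since the added term is itself a slope on GC content, a small correlation follows from the fit and tests no cause. Among the females the slope was negative in both controls and positive in both KO libraries, so slope and guide cannot be told apart there.

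**Figure D5:**
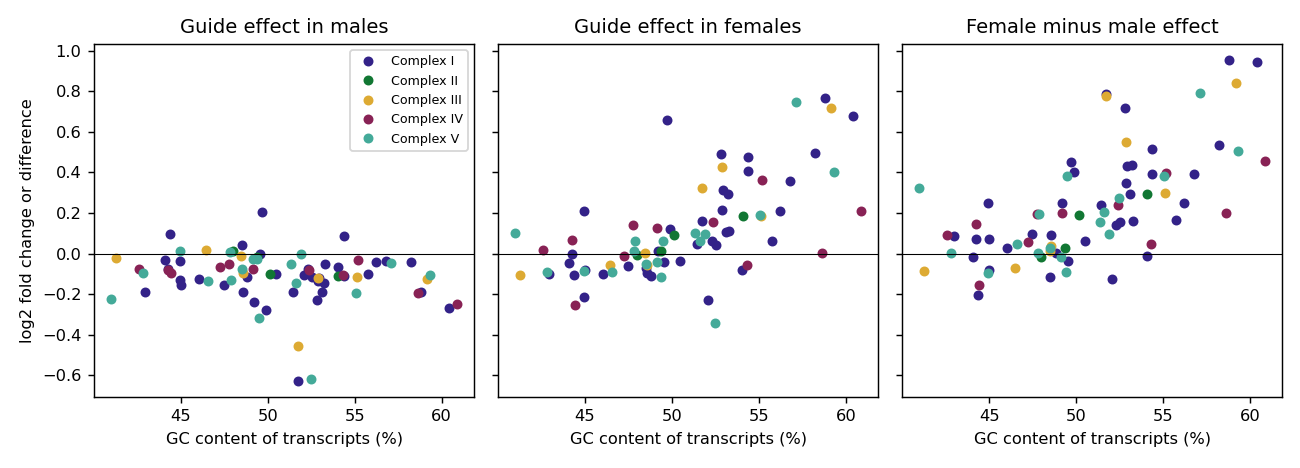
Log2 fold change of the SIK3 guide in males (left), in females (middle) and their difference (right) for the 77 tested members, against the GC content of their transcripts; colours mark the complex. Points rise to the right in females and in the difference, where 36 of the 38 members above 50.1% GC are positive.

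The members above the median GC content varied more between libraries than the others. Their median deviation was 0.18, -0.19, 0.03 and -0.07 in Control 1 to 4 and -0.22, 0.17, -0.04 and 0.15 in KO 1 to 4, and these had the sign of the library's GC slope in all but Control 3 (slope -0.10) and KO 3 (slope 0.03). For members at or below it the deviations were 0.03, -0.09, 0.15 and 0.04, and -0.08, 0.07, -0.07 and -0.06. The count of members with a higher difference at an unadjusted p under 0.05 also moved with single libraries. It was 25 without KO 2 (9.57% of all genes), 11 without KO 3 (4.69%) and 10 without Control 3 (7.54%). It was 3 without Control 4 (1.48%) and 1 without Control 1 (1.24%), KO 1 (2.06%) or KO 4 (1.36%).

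Markers of other cell types often had 1 sign for the guide or for the difference between the sexes, with 0 past the adjusted p (edgeR) in any list and overlapping summed levels in each list named here. The 10 oligodendrocyte markers were all negative for the guide (median -0.14), with a summed level of 3141 to 5217 CPM in controls and 2860 to 4515 CPM in KO libraries, and all positive for the difference (median 0.33). The 10 microglia markers were all positive for the guide (median 0.17), at 277 to 305 and 292 to 365 CPM, where KO 4 alone was above the controls, and 9 of 10 were positive for the difference. Endothelial markers were positive for the guide in 7 of 8, at 247 to 258 and 258 to 273 CPM. Meningeal fibroblast markers were positive in 5 of 5 (8.91 to 14.5 and 11.3 to 18.6 CPM) and astrocyte markers in 7 of 8 (1841 to 1928 and 1877 to 2012 CPM), while 9 of 10 dentate neuron markers were negative (1187 to 1338 and 1084 to 1319 CPM). Other lists were mixed. CA1 neuron markers were positive in 5 of 8 for the guide and 3 of 8 for the difference, and interneuron markers in 3 of 10 and 6 of 10. Over all tested genes 51.5% were positive for the guide and 51.9% for the difference. At an unadjusted p under 0.05 (edgeR), 2 endothelial, 1 microglia and 1 meningeal fibroblast marker were higher for the guide (background 1.79%). For the difference, 3 microglia markers were higher at that level (background 3.46%). So was 1 marker each of the oligodendrocyte, interneuron, and choroid plexus and ependymal lists. Choroid plexus RNA was low, with Ttr at 0.18 to 0.99 CPM, and the red blood cell gene Hbb-bs was at 0.66 to 1.64 CPM. The part of cell composition in the members' values was not tested.

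Genes that build and regulate these complexes were read from lists of their own, and few had a small p for the guide. Of 16 tested complex I assembly factors 9 were negative, and 1 was lower at an unadjusted p under 0.05 (1.03% of all tested genes were). That gene was Tmem126a, at 13.3, 14.3, 14.3 and 15.1 CPM in Control 1 to 4 and 11.2, 11.3, 10.9 and 11.4 CPM in KO 1 to 4, without overlap (log2 fold change -0.35 ± 0.09, edgeR unadjusted p = 0.0019, adjusted p = 0.9999). Its paralog Tmem126b, part of the intermediate assembly complex, was at -0.16 ± 0.07. Of 17 complex IV assembly factors 1 was higher at that level (1.79% of all tested genes were), Cox19, a copper-related factor, at 17.3 ± 0.70 CPM with the control guide and 19.4 ± 0.18 CPM with the SIK3 guide (n = 4 each, SD; 0.17 ± 0.07, edgeR adjusted p = 0.9999). None of the 10 assembly factors of complexes II and III and none of the 5 of complex V had an unadjusted p under 0.05, and Atpaf1, the chaperone of the beta subunit, was at -0.13 ± 0.06.

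Among 19 regulators of respiratory genes, 1 was lower at an unadjusted p under 0.05 (background 1.03%). Sirt1, a deacetylase that acts on PGC-1alpha, was at 36.7 ± 2.66 CPM with the control guide and 31.9 ± 1.97 CPM with the SIK3 guide (n = 4 each, SD), a log2 difference of -0.20 ± 0.08 (edgeR adjusted p = 0.9999). Ppargc1a itself, which encodes PGC-1alpha, was at 52.9 to 74.9 CPM in controls and 56.2 to 61.8 CPM in KO libraries (-0.07). The 14 tested genes of cytochrome c and coenzyme Q synthesis had a median of -0.02, and the 17 of the citric acid cycle and pyruvate dehydrogenase a median of 0.01, with 0 at that level in either list. The subunit genes outside the name rule, Cyc1 (cytochrome c1), Usmg5 and the ATP synthase inhibitor Atpif1, were at 0.09 ± 0.08, -0.05 ± 0.11 and 0.00 ± 0.08 (log2 fold change ± SE).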

How the data were processed

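The authors deposited raw read counts per Ensembl gene, 1 file per mouse, made from poly(A) RNA with a stranded TruSeq kit, per the labels' protocols. The submitters' processing notes name the build mm10 and the tools HTSeq 2.0.1, TopHat2 2.1.1 and Trimmomatic 0.33. Strand setting and annotation release were not given in the sources used here. Another table, with 8 columns of the same counts, was left unused. Symbols (35449 of 37315 identifiers), positions, exon lengths and GC content came from GENCODE M21 on GRCm38. Without a stated strand setting, genes with an opposite-strand neighbour (27 of 85 members) are uncertain.

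The test was the quasi-likelihood F test of edgeR 4.0.16 (R 4.3.3) with sex as a term and 5 residual degrees of freedom, after TMM scaling and filterByExpr on group (minimum count 10). Fits with a sex by guide term had 4. Either number was lower where a slope was added as a covariate or a library was left out. CPM used TMM library sizes, and log2 CPM a prior count of 2. Standard errors are the log2 fold change divided by the square root of F. Libraries are separate mice, and their numbers pair no animals. With 70 assignments the smallest exact permutation p is 0.0286.

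Named members were those with the smallest p in each complex and for sex and its interaction, groups without overlap, the most and least abundant, paralogous isoforms and up to 2 genes from each pathway list; members named from covariate and within-sex fits were named after their values were seen. Members and lists were chosen with earlier results of these data known. DESeq2 1.42.0, limma 3.58.1 voom, other scalings and filters, GC and length slopes and leaving out each library were alternatives; the GC slope within the sex by guide fit and the transcript length for levels were added after seeing the data. The scripts were tested on simulated counts. Values of 1 tested member are not reported here by name, and it is left out of the plots that name genes.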

Additional observations from a re-analysis of the deposited data

Results flagged for a closer look

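In each guide group of 4 libraries the highest or lowest value was compared with its nearest neighbour, relative to the group's range. This was done for 82 groups, and 4 stood out, where chance marks about 1 in 20. Uqcr11 was at 6.32 CPM in Control 1, with the other controls at 3.48 to 3.76 CPM. Uqcrq, also a small subunit of complex III, was at 4.47 CPM in the same library, with the others at 2.37 to 2.65 CPM. Atp5e was at 7.23 CPM in Control 2, with the other controls at 9.16 to 9.36 CPM, so this library lay nearest to the KO values. Atp5mpl was at 16.5 CPM in KO 1, with the other KO libraries at 17.9 to 18.1 CPM.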

How the results depend on the processing

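No paired analysis was possible because the labels give each mouse a number of its own, which no mouse of the other group has, and the numbers 1 to 4 used here only name libraries in accession order. Members past the adjusted p for the guide and for sex numbered 0 under every alternative run. With no filter on low counts, 2 members were lower (1.02% of all genes were) and 4 higher (2.99%) for the guide at an unadjusted p under 0.05, 12 were higher for the sex by guide term (4.95%), and 1, Ndufa13, passed its adjusted p there (0.414%). With the GC slope 8 were lower for the guide, and with the length slope 5 were lower and 1 higher (2.74%). DESeq2 gave 2 higher for the sex by guide term (1.73%) and 5 lower for sex (1.18%). The sex by guide term with the GC slope gave 0 higher (1.56%). Leaving out 1 library at a time gave 1 to 4 lower and 0 to 11 higher for the guide. It gave 1 to 25 higher for the sex by guide term and 1 to 19 lower in females. The cause was not tested. In these sets 1 to 4 members had groups that did not overlap, lower in KO. The share over all genes was not computed for them. Smaller groups come apart by chance more often, so this count is not a result about the members.

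Of 30 single members, 11 changed sign somewhere, and apart from Uqcr11 (0.31) all of these had effects near zero. Sdha was at -0.0019 under RLE scaling and DESeq2, and Sdhd at 0.0017 with limma voom. With the GC slope Sdhd was at 0.0057, Uqcrc1 at -0.041, Uqcrc2 at 0.022 and Ndufa9 at 0.0021. Leaving out 1 library gave Sdha -0.025 to 0.033, Sdhb -0.034 to 0.108, Sdhc -0.066 to 0.052, Sdhd -0.056 to 0.048, Uqcr11 -0.012 to 0.572, Uqcrc1 -0.029 to 0.154, Uqcrc2 -0.076 to 0.033, Uqcrq -0.308 to 0.186, Cox6c -0.017 to 0.118, Atp5b -0.036 to 0.060 and Ndufa9 -0.062 to 0.058. Atp5e ran from -0.57 to -0.42 over all alternatives, with an adjusted p of 0.146 to 0.99998. Depth limits the members with few reads most, such as Ndufb6 at 18 to 52 per library.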
